A study of Mus musculus with 22 samples.

Results

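The 10 genes Mcpt8, Prss34, Cma1, Mcpt4, Tpsb2, Tpsab1, Cpa3, Ctsg, Elane and Prtn3 encode the granule proteases of basophils, mast cells and neutrophil precursors. They were chosen by name with earlier results of these data known, and all 10 were found among the 24911 genes listed for each library. Every one of the 22 libraries was read, with basophils set against the other 21 and back skin examined for the mast cell proteases. The libraries were poly(A) RNA of mouse cells and tissues, each the only library of its group. Of these, 7 were B cells, namely splenic B cells and 6 activated cultures. The stimuli were aCD40+IL4, aBCD180, LPS (bacterial lipopolysaccharide) alone, and LPS joined with IL21 (LPS+IL21), IL4 (LPS+IL4) or a-d-dextran (LPS+a-d-dextran). CD4 T cells made up 9 libraries: Tfh (follicular helper), activated non-Tfh sorted as CD4+CD44+CXCR5-PD1-CD25-, Tfr (follicular regulatory) sorted as CD4+CD44+CXCR5+PD1+CD25+, and CD4+ T cells, each with and without a MUT label, plus CD4+ T cells activated with the mitogen ConA. The others were the CH12 B lymphoma line (clone bc5), putamen, medulla oblongata, sensorimotor cortex, back skin and basophils. The labels state C57BL/6J for the mature B cells. For basophils and back skin they name neither strain, age, treatment, nor how basophils were obtained, and they do not say what the MUT allele is. With 1 library a group there is no replicate spread, so the differences below carry no p-value.

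Basophils and mast cells store proteases in granules, bound to the proteoglycan serglycin, and release them when IgE receptors are crosslinked. Cma1 and Mcpt4 belong to the chymases, of which Mcpt4 cuts after aromatic residues. Tryptases (Tpsb2, Tpsab1) cut after basic residues, and carboxypeptidase A3 (Cpa3) trims the carboxyl end of peptides. Mcpt8 is the classical marker protease of mouse basophils, and Prss34 encodes a tryptase-like protease also known from basophils. Ctsg (cathepsin G), Elane (neutrophil elastase) and Prtn3 (proteinase 3) are packed into the azurophil granules of promyelocytes, the precursors of neutrophils. Mcpt4 is the chymase of connective tissue mast cells, the type that resides in skin.

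All levels are TPM, the share of a library's transcripts that a gene accounts for, corrected for gene length and scaled to the same total in every library, which allows genes to be set side by side. Total expected counts, the reads assigned to genes, ran from 30.8 to 147.9 M with a median of 46.2 M, and were 45.0 M in basophils and 43.9 M in back skin. At that depth 3 reads of Mcpt8 were worth 0.174 TPM in basophils and 0.149 TPM in back skin. Intervals in brackets are exact Poisson 95% intervals of the read count, or exact binomial ones for a ratio of libraries. Both the ratios and the intervals use reads rounded to whole numbers, so a ratio can differ slightly from the quotient of the printed TPM. The intervals cover counting error only and leave out any spread between animals. A gene met the rule of size used throughout when its log2(TPM + 1) was at least 3 above every compared library, with at least 10 TPM on the higher side. The labels of both libraries were checked against markers. In basophils 7 of 12 basophil markers met the rule, among them the IgE receptor chains Fcer1a (1268 TPM) and Ms4a2 (1382 TPM). One of the 7 is Mcpt8 itself, and the other 6 are not among the 10 proteases. In back skin 5 of 6 keratinocyte markers met it, led by Krt5 (2933 TPM) and Krt14 (2747 TPM).

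**Figure D1:**
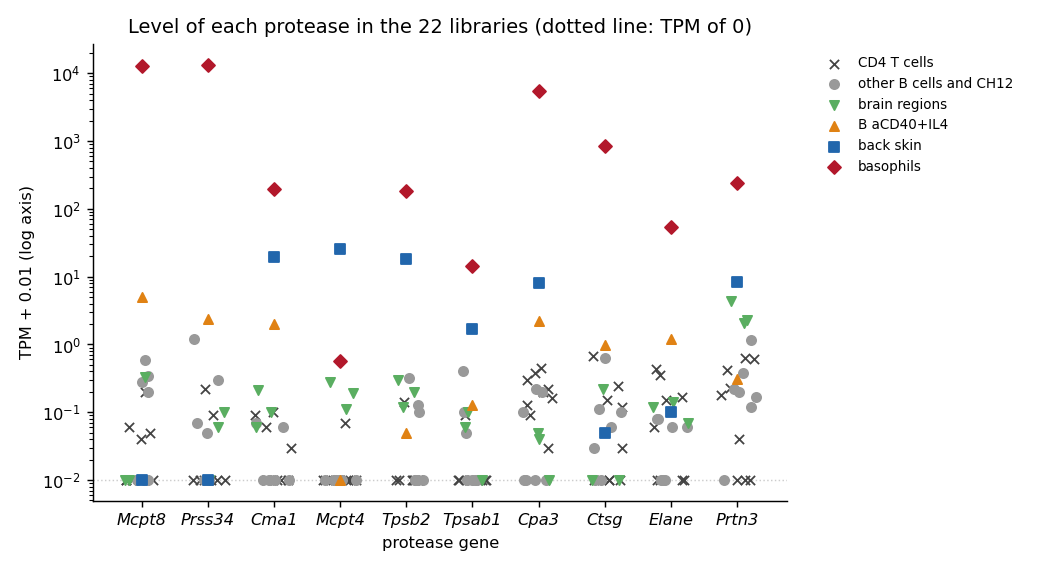
TPM plus 0.01 on a log axis for the 10 proteases (x axis), with 1 point per library for the 22 libraries, coloured by kind. Basophils are the highest library for 9 genes and back skin is the highest for Mcpt4, at 25.8 TPM.

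Taken as a sum, the proteases were far higher in basophils than in any other library. The 10 genes came to 33387 TPM, 3.34% of all transcripts of the basophil library, against 82.0 TPM in back skin and 14.2 TPM in the aCD40+IL4 B culture. In the other 6 B libraries the sum lay between 0.07 and 2.25 TPM (median 0.93), in the 9 CD4 T libraries between 0.08 and 1.97 (median 0.67), and in the 3 brain libraries between 2.57 and 4.97. In CH12 the sum was 1.21 TPM. By the rule of size 8 of the 10 proteases were higher in basophils than in each of the other 21 libraries, where 0.660% of 20163 genes met it. The exceptions were Mcpt4 and Tpsab1. Because the 10 genes were chosen with earlier results of these data known, this contrast with all genes is description only. None was called lower in basophils than in every other library, as 0.0198% of genes were. That call needs at least 10 TPM in each of the other 21 libraries. Each protease had no reads in some of them, so none could receive it. On deposited FPKM plus 1, Cma1 and Tpsb2 came to log2 differences of 2.94 and 2.95, and 6 of the 10 met the rule. The median of log2(TPM + 1) in basophils minus that in the highest other library was 4.68 for the 10 genes and -1.50 for all genes.

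The pair of basophil proteases had the highest TPM of all genes in the basophil library, with Prss34 at rank 1 and Mcpt8 at rank 2. Prss34 stood at 13374 TPM [13329.5 to 13419] in basophils and at 0 reads in back skin and CH12. Its level was 0 to 2.36 TPM in the 7 B libraries (median 0.06), 0 to 0.21 in the 9 CD4 T libraries (median 0), and 0.05, 0.09 and 0 in putamen, medulla oblongata and cortex. Basophils thus lay above all other libraries without overlap, by a factor of 5678 [4402 to 7459] over the nearest, aCD40+IL4. Mcpt8 stood at 12997 TPM [12943 to 13051] in basophils and at 0 reads in back skin and CH12. It was at 0 to 5.08 TPM in the B libraries (median 0.27) and at 0 to 0.19 in the CD4 T libraries (median 0). In medulla oblongata it was at 0.32 TPM, and in putamen and cortex at 0 reads. The nearest library was again aCD40+IL4, exceeded by a factor of 2560 [2073 to 3200]. Back skin was at least 87222-fold lower than basophils for Mcpt8 and at least 132728-fold lower for Prss34, taking 3 reads as the floor of the skin library. The intervals of Prss34 and Mcpt8 in basophils do not overlap, and together the pair took 79.0% of the summed TPM of the 10 proteases.

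The promoter windows of 4 members are shown because they hold the genes at the extremes: Mcpt8, Prss34 and Cpa3, the most abundant proteases of basophils, and Mcpt4, the mast cell chymase next to Mcpt8 that basophils nearly lacked. The windows are chr17:25298144-25298443 (plus strand) for Prss34, chr14:56085148-56085447 (minus strand) for Mcpt8, chr3:20242132-20242431 (minus strand) for Cpa3 and chr14:56062261-56062560 (minus strand) for Mcpt4. Each runs 5′ to 3′ on the gene's own strand from 250 bases before to 50 bases after the start in the RefSeq promoter table, which for Mcpt8 and Cpa3 lies inside the outer bounds of the gene. Sequences are from RefSeq on GRCm38.p6 (the same coordinates as mm10, the build in the submitters' processing notes). Capitals mark GATAA or its reverse complement, the core letters of sites for GATA factors.
Prss34: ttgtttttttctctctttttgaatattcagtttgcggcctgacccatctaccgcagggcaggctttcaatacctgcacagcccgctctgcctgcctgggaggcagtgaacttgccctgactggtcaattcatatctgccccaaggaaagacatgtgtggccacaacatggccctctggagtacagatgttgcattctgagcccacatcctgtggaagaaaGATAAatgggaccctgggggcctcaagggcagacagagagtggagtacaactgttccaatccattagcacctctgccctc
Mcpt8: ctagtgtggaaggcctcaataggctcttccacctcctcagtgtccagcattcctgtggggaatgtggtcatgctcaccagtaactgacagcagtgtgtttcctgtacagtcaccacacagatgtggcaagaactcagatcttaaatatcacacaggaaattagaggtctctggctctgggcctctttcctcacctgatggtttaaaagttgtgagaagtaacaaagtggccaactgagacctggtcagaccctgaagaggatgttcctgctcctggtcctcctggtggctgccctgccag
Cpa3: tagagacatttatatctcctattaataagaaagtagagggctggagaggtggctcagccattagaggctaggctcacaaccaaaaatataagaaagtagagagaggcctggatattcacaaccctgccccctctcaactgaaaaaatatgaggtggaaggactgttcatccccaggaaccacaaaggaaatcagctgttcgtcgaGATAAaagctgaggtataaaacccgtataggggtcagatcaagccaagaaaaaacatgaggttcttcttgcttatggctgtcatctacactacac
Mcpt4: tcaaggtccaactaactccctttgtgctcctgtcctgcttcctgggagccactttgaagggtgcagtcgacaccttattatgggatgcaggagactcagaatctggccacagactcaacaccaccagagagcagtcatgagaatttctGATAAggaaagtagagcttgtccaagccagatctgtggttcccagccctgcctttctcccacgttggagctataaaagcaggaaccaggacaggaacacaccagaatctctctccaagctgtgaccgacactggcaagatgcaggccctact
RefSeq windows were at hand for 8 of the 10 members. GATAA occurred on either strand in 4 of the 8 (Prss34, Cma1, Mcpt4 and Cpa3), and in 25.3% of 32544 windows of all genes. TGTGGT, letters bound by RUNX factors, occurred on either strand in 5 of the 8 (Mcpt8, Cma1, Mcpt4, Cpa3 and Ctsg), and in 16.7% of all windows. GATAA was in the window of Prss34 from base -30 to -26 and in that of Cpa3 from -45 to -41, and no GATAA was in the window of Mcpt8. Mcpt4, which basophils nearly lacked, had GATAA from -102 to -98. Whether these letters bear on the levels was not tested. Gata2, which encodes a GATA factor of basophils and mast cells, stood at 1761 TPM in basophils, 1.99 in back skin and at most 2.74 in the other 20 libraries.

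Cpa3, carboxypeptidase A3 of mast cells and basophils, was the remaining protease of very high level. It stood at 5472 TPM [5445 to 5498] in basophils, rank 8 of all genes, and at 8.04 TPM [7.14 to 9.03] in back skin, which was the nearest library at a factor of 680.5 [606 to 767]. The B libraries held 0 to 2.19 TPM (median 0.09) and the CD4 T libraries 0.02 to 0.44 (median 0.19). Putamen, medulla oblongata and cortex held 0.04, 0 and 0.03 TPM, and CH12 had 0 reads. Cpa3 was detected in all 9 CD4 T libraries, with 2 to 21 reads. With Mcpt8 and Prss34 it took 95.4% of the summed TPM of the 10 proteases in basophils.

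Among the mast cell serine proteases, basophils and back skin shared Cma1 and Tpsb2 and differed in Mcpt4. Cma1, the alpha-chymase, was at 195 TPM [189 to 200.4] in basophils and 19.7 TPM [18.0 to 21.4] in back skin, a ratio of 9.90 [9.04 to 10.9]. Outside these libraries it was highest in aCD40+IL4, at 1.97 TPM, and otherwise at most 0.20 TPM (medulla oblongata). Tpsb2, the tryptase also called mouse mast cell protease 6, was at 185 TPM [180 to 191] in basophils and 18.5 TPM [16.9 to 20.2] in back skin, a ratio of 10.0 [9.14 to 11.04]. The remaining 20 libraries held at most 0.31 TPM of it (B LPS), and 12 of them had 0 reads. Both genes therefore had nearly the same basophil to skin ratio, and Tpsb2 was 0.95 times Cma1 in basophils and 0.94 times Cma1 in back skin. Cpa3 did not keep that proportion: it was 28.1 times Cma1 in basophils and 0.41 times Cma1 in back skin.

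Mcpt4 had the reverse order. It stood at 25.8 TPM [23.8 to 27.9] in back skin, from 619.9 expected reads, and at 0.56 TPM [0.27 to 0.96] in basophils, from 11.5 expected reads. Both counts were fractional, so some reads were divided with other genes, which the intervals leave out. Back skin was higher by a factor of 48.1 [26.7 to 96.9] over basophils and 95.4 [40.7 to 295] over the next library, medulla oblongata (0.27 TPM). The 7 B libraries had 0 reads each, and so did 8 of 9 CD4 T libraries, with 0.06 TPM in the ConA library. Putamen held 0.18 TPM and cortex 0.10 TPM. Mcpt4 was the only one of the 10 proteases higher in back skin than in every other library by the rule of size, which 2.68% of all genes met. Against the 20 libraries without basophils, Mcpt4 and Tpsb2 met it (2.82% of all genes), with Tpsb2 above B LPS by a factor of 58.9 [25.1 to 182]. Cma1 missed it with a log2 difference of 2.80 from aCD40+IL4, and met it at 4.11 when that library was left out, which made 3 of the 10. None of the 10 was called lower in back skin than in every other library (0.0298% of all genes) or than in every library but basophils (0.0397%). That call needs at least 10 TPM in every compared library. Each protease had no reads in some of them, so none could receive it.

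Tpsab1, the tryptase also called mouse mast cell protease 7, was at 14.2 TPM [12.7 to 15.7] in basophils and 1.66 TPM [1.21 to 2.18] in back skin, a ratio of 8.59 [6.34 to 11.9]. Its log2 difference of 2.51 stayed under the rule. The B libraries held at most 0.40 TPM (B LPS), and 13 of the 20 libraries had 0 reads. RefSeq lists Tpsab1 of the C57BL/6J assembly as a transcribed pseudogene. Its expected counts were fractional, 352.03 in basophils and 48.37 in back skin, while the sum with Tpsb2 was whole, 4551 and 538 reads, so reads were divided between these 2 genes. Tpsab1 took 7.74% of the pair's reads in basophils and 8.99% in back skin. No stretch of 50 bases, the read length, was identical between their GENCODE M21 transcripts, and 1.84% of the stretches of Tpsb2 had a partner in Tpsab1 with at most 2 mismatches. How many reads were divided is not given in the sources used here, which leaves the Tpsab1 level uncertain.

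**Figure D2:**
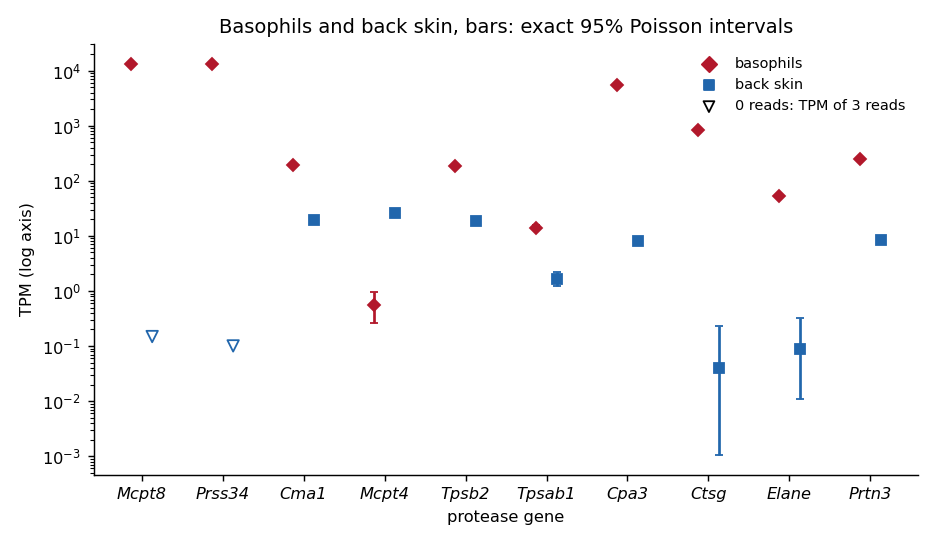
TPM on a log axis in basophils (diamonds) and back skin (squares) for the 10 proteases, with exact 95% Poisson intervals of the counts; open triangles mark the TPM of 3 reads where the library had 0. Mcpt4 alone is higher in back skin (25.8 against 0.56 TPM), while Mcpt8 and Prss34 have 0 reads there.

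Set directly against basophils, back skin was lower by the rule of size in 8 of the 10 proteases (4.11% of all genes) and higher in Mcpt4 (7.80% of all genes). Within back skin, Mcpt4 took 31.5% of the summed TPM of the 10 proteases, Cma1 24.0%, Tpsb2 22.5%, Prtn3 10.1%, Cpa3 9.80% and Tpsab1 2.02%. Within basophils, Prss34 took 40.1%, Mcpt8 38.9%, Cpa3 16.4% and Ctsg 2.55%, and each other gene under 1%. The make-up of the protease set thus differed between these libraries as well as its amount. In bulk RNA, fewer cells of a type and less RNA per cell cannot be told apart, so the lower skin levels say nothing of the amount per mast cell.

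Other mast cell markers gave a mixed picture in both libraries. In basophils Kit, the stem cell factor receptor that mast cells carry, was at 1.51 TPM, and the mast cell receptors Mrgprb2 and Mrgprb1 were at 0.11 and 0.04 TPM. Tph1, which makes serotonin in mast cells, was at 27.2 TPM in basophils and 0.16 in back skin. In back skin Kit was at 5.15 (16.4 in putamen), Mrgprb2 at 2.88, Mrgprb1 at 0.80 and Mitf, a transcription factor of mast cells and melanocytes, at 41.0 TPM. Fcer1a, however, was at 0.04, Ms4a2 at 0.27 and Hdc, the histamine-forming enzyme, at 1.48 TPM in skin. Over the whole list of 14 mast cell markers the summed level was 9847 TPM in basophils, 129 in back skin and 3.09 to 65.7 in the other 20 libraries. Of the 14, 7 met the rule of size in basophils, among them Fcer1a, Ms4a2 and Hdc, and Mcpt4 alone met it in back skin. Those at or under 1 TPM were 4 in basophils and 5 in back skin. The list holds the members Cma1, Mcpt4, Tpsb2 and Cpa3, at 19.7, 25.8, 18.5 and 8.04 TPM in back skin. They make up much of the skin sum there, and Mitf makes up much of the rest. In basophils Cpa3 (5472 TPM) takes the largest part, followed by Ms4a2, Hdc and Fcer1a. The sums are therefore no support apart from the members, and sums without the members were not computed.

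The azurophil granule proteases were also high in basophils. Ctsg stood at 851 TPM [839 to 864], rank 187 of all genes, against 0.04 TPM in back skin (1 read) and 0 to 0.98 TPM in the B libraries (median 0.09). The CD4 T libraries held 0 to 0.67 TPM of Ctsg (median 0.02), medulla oblongata held 0.21, and putamen, cortex and CH12 had 0 reads. Basophils exceeded the nearest library, aCD40+IL4, by a factor of 867 [561 to 1420]. Elane stood at 53.4 TPM [50.1 to 56.8] in basophils and 0.09 in back skin (2 reads). It was at 0 to 1.18 TPM in the B libraries (median 0.05), 0 to 0.43 in the CD4 T libraries (median 0.05), 0.06 to 0.13 in the brain libraries and 0.07 in CH12. Its factor over aCD40+IL4 was 45.4 [29.8 to 72.7]. Ctsg was 15.95 times as abundant as Elane in basophils.

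Prtn3 stood at 244 TPM [237 to 251] in basophils and was the only azurophil protease above 2 TPM in any other library. It was at 8.26 TPM [7.13 to 9.503] in back skin (194 reads), 4.36 in putamen, 2.27 in medulla oblongata, 2.05 in cortex and 1.14 in CH12. The B libraries held 0 to 0.37 TPM (median 0.19) and the CD4 T libraries 0 to 0.63 (median 0.17). Basophils exceeded back skin by a factor of 29.5 [25.6 to 34.3]. Exons of Prtn3 in GENCODE M21 overlap by 159 bases with those of Plppr3, a brain-expressed gene on the opposite strand. The RefSeq model of Prtn3, whose transcript the deposited values name, does not reach Plppr3. Plppr3 was at 48.1, 35.5 and 25.2 TPM in putamen, medulla oblongata and cortex, 6.89 in back skin, 16.2 in basophils, 2.27 in CH12 and 3.01 to 12.0 in the 16 lymphocyte libraries (median 7.82). Splenic B cells, at the top of that lymphocyte range, had 0 reads of Prtn3. The sources used here do not say whether counting used strand, and the part of Plppr3 in the brain and skin values of Prtn3 was not tested.

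Markers of neutrophils and their precursors were high in basophils beside these 3 genes. Of 14 such markers 9 were higher in basophils than in every other library by the rule of size. They were Mpo, the myeloperoxidase of azurophil granules (289 TPM), Ms4a3 (110), Lcn2 (195), S100a8 (1172), S100a9 (930), Ly6g (838), Mmp8 (121), Retnlg (21.8) and Cxcr2 (287). The other 5 did not meet the rule, with Csf3r at 15.97, Cebpe at 7.80, Ngp at 6.56, Ltf at 3.29 and Camp at 0.92 TPM. The list summed to 3999 TPM in basophils, 93.8 in back skin and 0.34 to 54.2 in the other 20 libraries. Eosinophil markers summed to 563 TPM in basophils, with Epx (60.8), Prg2 (442), Prg3 (21.7) and Ear6 (14.03) meeting the rule, 4 of 9. Among monocyte and macrophage markers Adgre1 (278), Ly6c2 (1031) and Ccr2 (349) met it, 3 of 10, while C1qa, C1qb and C1qc were between 0.59 and 0.73 TPM. B-cell markers summed to 9.20 TPM and T-cell markers to 54.0 TPM in basophils, of which Thy1 made 52.6. Whether basophils themselves or admixed cells held Ctsg, Elane and Prtn3 was not tested.

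**Figure D3:**
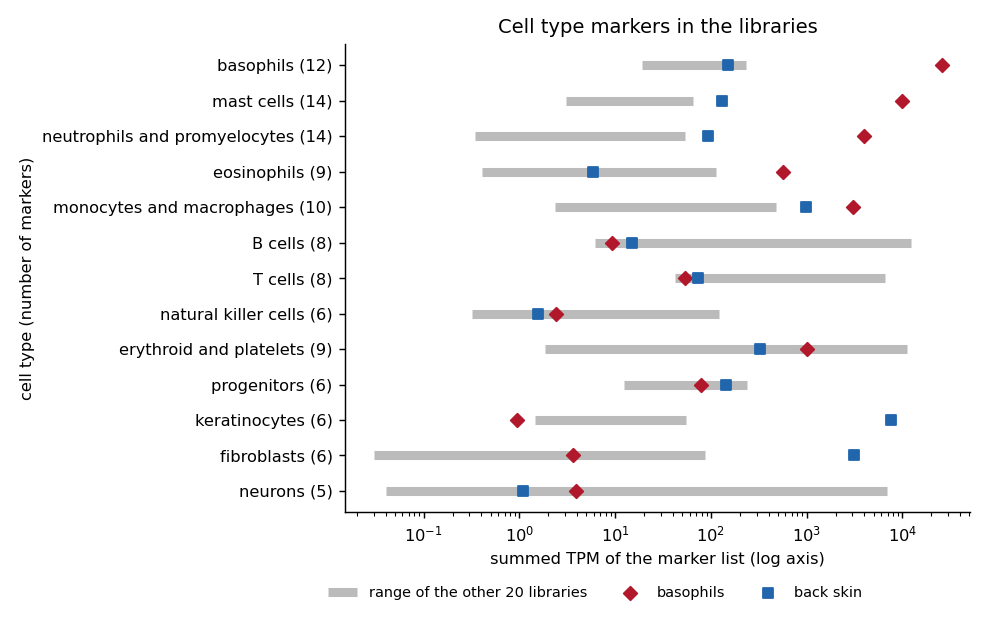
Summed TPM of each cell type marker list on a log axis, with the number of markers in brackets: basophils (diamonds), back skin (squares) and the range of the other 20 libraries (grey bars). Basophils stand above that range for basophil, mast cell, neutrophil, eosinophil and monocyte markers, and near its lower end for B-cell and T-cell markers. The basophil list includes the member Mcpt8, and the mast cell list includes Cma1, Mcpt4, Tpsb2 and Cpa3. Fcer1a and Ms4a2 are in both lists.

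The genes lie on 4 chromosomes, and close neighbours differed widely in level. Mcpt8 (chromosome 14, 56082163 to 56085499, minus strand), Ctsg (56099885 to 56102574), Mcpt4 (56059744 to 56062310) and Cma1 (55941451 to 55944675) belong to the chymase locus, where each has 5 exons and the same strand. Mcpt8 lies between Mcpt4, whose start is 23.2 kb away, and Ctsg, whose start is 17.1 kb away. These neighbours stood at 0.56 and 851 TPM in basophils beside 12997 TPM of Mcpt8, and at 25.8 and 0.04 TPM in back skin beside 0 reads of Mcpt8. Of the 15 genes of the locus in the files, 3 met the rule of size in basophils (Cma1, Mcpt8 and Ctsg) and 1 in back skin (Mcpt4), while 11 were at or under 1 TPM in basophils. Between Cma1 and Mcpt4 lie Cma2, Mcpt1, Mcpt2 and Mcpt9, at 0.64, 0, 0.25 and 0 TPM in basophils and at 0.09, 1.00, 0 and 0 TPM in back skin. At the far end Gzmb, granzyme B of cytotoxic cells, was at 282 TPM in basophils and 872 TPM in the ConA library. Shared sequence could bear on 2 members: 5.38% of the 50-base stretches of Cma1 also occur in the pseudogene Gm48934, and 5.48% of those of Mcpt4 in Cma2 or Mcpt9.

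The tryptase locus on chromosome 17 holds Prss34 (25298394 to 25300168, plus strand), Tpsab1 (25343245 to 25345562, minus strand) and Tpsb2 (25366308 to 25368096, plus strand). Prss28, a serine protease gene whose start is 10.3 kb from that of Prss34, was at 145 TPM in basophils, 0 in back skin and at most 0.08 in the other 20 libraries. The next gene, Prss29, was at 0.04 TPM in basophils. Tpsg1, a membrane tryptase beside Tpsb2, was at 3.79 TPM in basophils and 0.33 in back skin. Of 13 genes listed for this locus and its relatives on the chromosome, Prss34, Prss28 and Tpsb2 met the rule in basophils and none did in back skin, where Prss22 was at 20.2 TPM. Prtn3 (79879667 to 79883174) and Elane (79886312 to 79888216) lie on the plus strand of chromosome 10 beside Cfd, the adipocyte protease complement factor D. Cfd had the opposite order, with 1842 TPM in back skin and 4.17 in basophils. Cpa3 (chromosome 3, 20215616 to 20242209, minus strand) has 11 exons, and its relative Cpb1 was at 1.36 TPM in basophils. Of 13 carboxypeptidases, Cpa3 alone met the rule in basophils, and Cpa4 (55.0 TPM) and Cpz (11.8 TPM) met it in back skin.

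**Figure D4:**
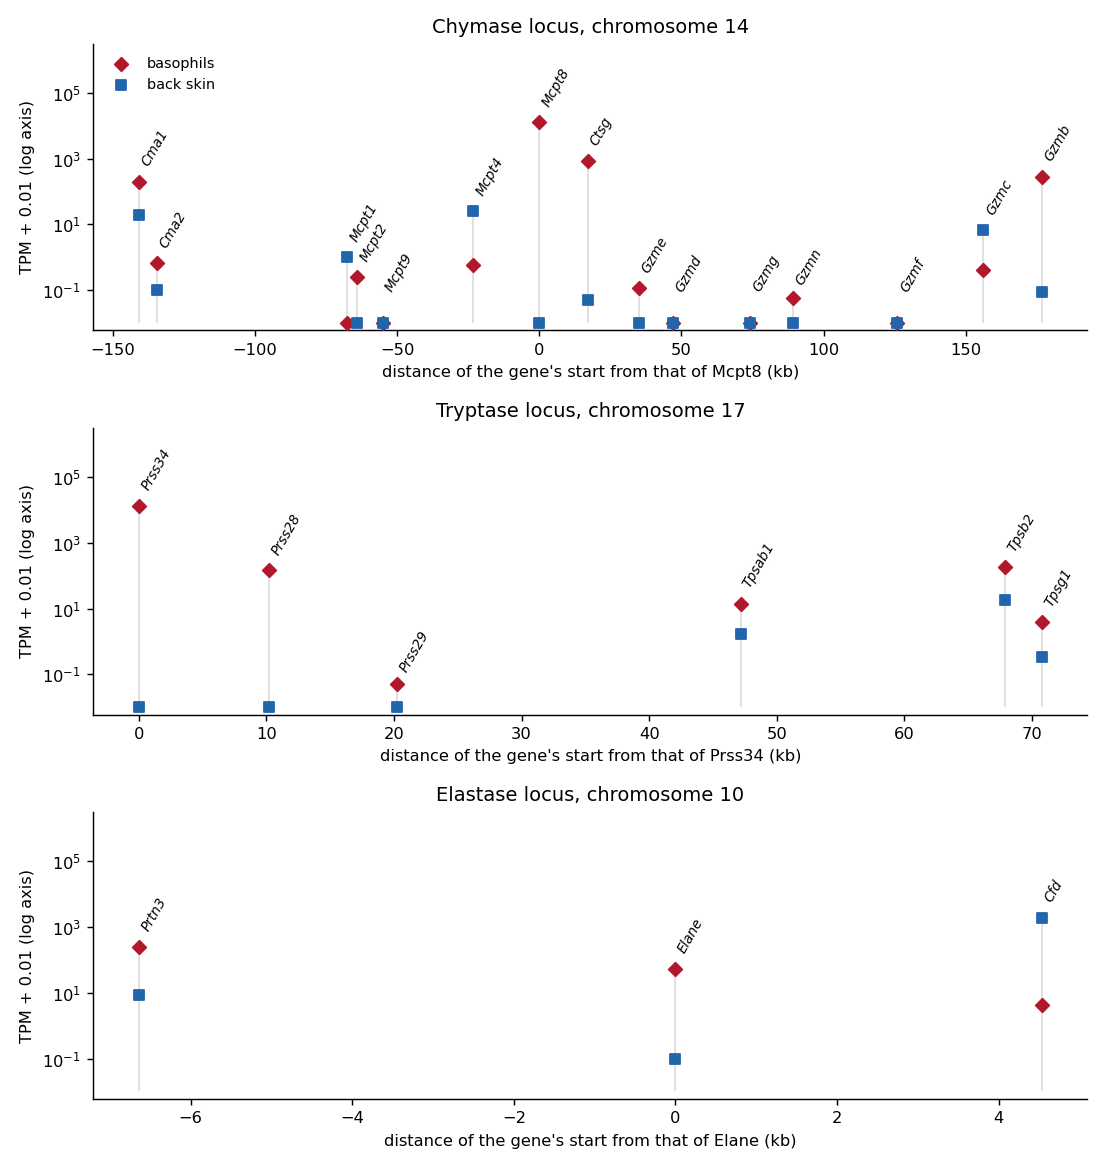
TPM plus 0.01 on a log axis in basophils (diamonds) and back skin (squares) against distance in kb between gene starts, for the chymase, tryptase and elastase loci (for the tryptase locus, genes within 100 kb). Mcpt4 lies beside Mcpt8 yet has 0.56 TPM in basophils against 12997 TPM.

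Genes that store and activate granule proteases were measured beside them. Srgn, the serglycin core protein, was at 2155 TPM in basophils, 28.2 in back skin and at most 879 elsewhere. Cd63, a granule membrane protein, was at 2681 TPM in basophils and 368 in back skin. Ndst2, an N-sulfotransferase needed for mast cell heparin, was at 142 TPM in basophils, 13.7 in back skin and at most 38.6 elsewhere. Of 19 storage genes only Hdc (1304 TPM) and Slc18a2, a vesicular amine transporter (253 TPM), met the rule in basophils and none did in back skin. The median log2 difference of the list from the highest other library was 0.55 in basophils and -2.62 in back skin. Among 9 lysosomal proteases Ctse, cathepsin E, met the rule in basophils (859 TPM), where Ctsd, cathepsin D, was at 4276 TPM against at most 1204 elsewhere. Ctsc, which trims the granule serine proteases to their active form, was at 143 TPM in basophils, 67.6 in back skin and up to 151 elsewhere (CH12), so basophils were not the highest library for it.

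Outside basophils and back skin the proteases were at trace level, and the aCD40+IL4 B culture stood apart. It was the highest of the 20 remaining libraries for 6 of the 10 genes: Mcpt8 (5.08 TPM, 86 reads), Prss34 (2.36, 59 reads), Cpa3 (2.19, 66 reads), Cma1 (1.97, 44 reads), Elane (1.18, 22 reads) and Ctsg (0.98, 20 reads). Mcpt4 had 0 reads there, and Tpsb2 had 1. Relative to basophils the levels were unequal. Elane reached 2.20% [1.38 to 3.36] of its basophil TPM and Cma1 1.01% [0.73 to 1.36]. Ctsg reached 0.12% [0.07 to 0.18], Cpa3 0.04% [0.03 to 0.05], Mcpt8 0.04% [0.03 to 0.05] and Prss34 0.02% [0.01 to 0.02]. The intervals of Elane and Cma1 lie wholly above those of Ctsg, Cpa3, Mcpt8 and Prss34. Tpsab1, from 3 reads, was at 0.87% [0.18 to 2.55], an interval that overlaps those of Elane and Cma1. Prtn3 was at 0.12% [0.05 to 0.27] and Tpsb2 at 0.02% [0.0006 to 0.13]. Over the 133 genes higher in basophils by the rule of size, the median share in this culture was 0.13%, with quartiles of 0.04% and 0.53%. With back skin counted among the other libraries, aCD40+IL4 was the highest of them for 9 of these 133 genes. On that count aCD40+IL4 was highest for Mcpt8, Prss34, Ctsg and Elane, which are among the 9, and back skin for Cma1 and Cpa3. The share of all genes highest in aCD40+IL4 among the 20 libraries was not counted, so the 6 of 10 have no matching background. Among the other lymphocyte libraries the largest values were 1.20 TPM of Prss34 in LPS+IL21 (28 reads), 0.67 of Ctsg and 0.63 of Prtn3 in Tfr, and 0.62 of Ctsg in B LPS.

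**Figure D5:**
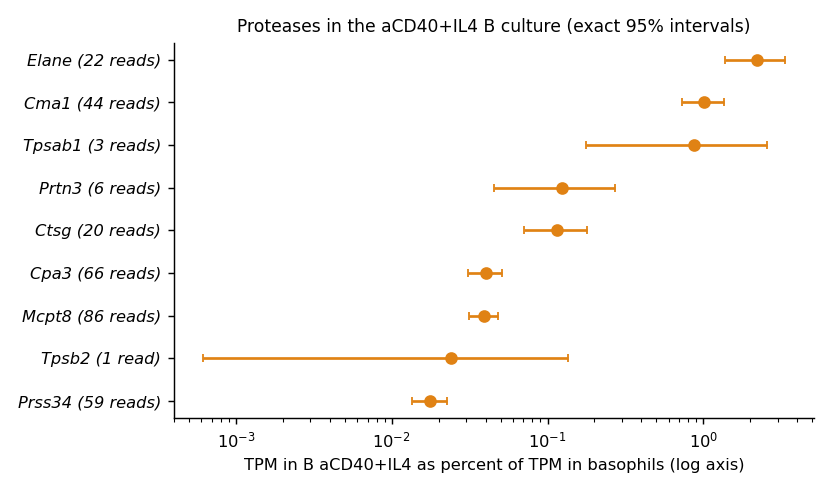
TPM of each protease in the aCD40+IL4 B culture as percent of its TPM in basophils (log axis), with exact 95% intervals and the reads behind each point; Mcpt4, with 0 reads, is left out. Elane (2.20%) and Cma1 (1.01%) lie above Ctsg, Cpa3, Mcpt8 and Prss34, which lie between 0.02% and 0.12%. Tpsab1 (0.87%, 3 reads) has an interval that overlaps those of Elane and Cma1.

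The genes most like each protease were found by Euclidean distance of log2(TPM + 1) over the 22 libraries, among 13896 genes with at least 10 TPM in some library. The nearest to Mcpt8 was Prss34 (distance 1.10), followed by Cpa3, Fcer1a, Ms4a2 and Gata2. For Prss34 the order was Mcpt8, Cpa3, Fcer1a, Ms4a2 and Ctsg. Cma1 and Tpsb2 were each other's nearest gene (1.58), and both were followed by Scgb1a1, Ptger3, Serpinb2 and Rab38. Those nearest to Mcpt4 were high in skin: Gpihbp1 (0.42), Ccl11, Trpv3, Rbp7 and Mmp3. Ctsg was nearest to Fcer1a (1.02), Ly6g, Alox15, Ms4a2 and Wap, and Elane to Epx (1.11), Chil3, Tph1, Chst13 and Mrgpra6. Cpa3 was nearest to the leukotriene enzyme gene Alox5 (3.56), then Gata2, Prss34, Mcpt8 and Ms4a2. Prtn3 was nearest to Hacd4 (2.20), Ptger3, C3ar1, Alox5 and Adora3, and the genes near Tpsab1 included Btnl9 (0.70), Msr1, Kcne3 and Tfec. A single library decides most of these distances, so they describe sharing of basophil or skin signal and no more.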

How the data were processed

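Poly(A) RNA of 22 mouse libraries was sequenced for 50 cycles, per the labels. Per the file headers, the deposited values of a gene are its expected count, TPM and FPKM. Expected counts are the authors' estimates of reads per gene, not normalized, in which an ambiguous read can be split. TPM and FPKM were scaled by the authors for length and depth. The submitters' processing notes name RSEM, STAR, CASAVA 1.8.2, bedtools and the build mm10; their order, settings and strand are not given in the sources used here.

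Genes above 0 in some library (20163 of 24911) were compared on log2(TPM + 1). A gene was called when it differed by at least 3 from every compared library, with at least 10 TPM on the higher side. No test was run, since each group has 1 library. The call rule was tested on simulated data. Intervals use rounded counts, and a floor of 3 reads applies where a library has 0. Named genes are the members, list genes that met the rule, the 2 list members highest in basophils or back skin, and the 5 nearest genes, of which 1 is not reported here; others were named after their values were seen. The members and lists were chosen with earlier results of these data known. Alternatives were TMM-scaled CPM (edgeR 4.0.16, R 4.3.3), FPKM, other pseudocounts, minimums, sizes and library sets. Sequences are from RefSeq (GRCm38.p6) and transcripts from GENCODE M21. Other tools were scipy 1.17.1, numpy 2.4.6, matplotlib 3.10.9 and pandas 2.3.3.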

Additional observations from a re-analysis of the deposited data

How the results depend on the processing

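No paired analysis was possible because each group has 1 library, and no replicate could be left out for the same reason. Of 340 recomputed single values, 0 changed direction while called. With FPKM, 6 of the 10 proteases met the rule in basophils instead of 8. With a pseudocount of 0.1, a log2 difference of 2, or back skin left out, 9 did, Tpsab1 being added. Without back skin, Mcpt4 in basophils went from -4.10 to 0.30 against the highest other library. Counts over all genes moved more. Genes higher in basophils went from 133 to 222 at a log2 difference of 2. Genes lower in basophils went from 4 to 7 with a pseudocount of 0.1 and without back skin, 8 with TMM-scaled CPM, 1 with FPKM and 9 at a log2 difference of 2. Genes lower in back skin than in every other library went from 6 to 11 with a pseudocount of 0.1, 23 at a log2 difference of 2 and 82 without the brain libraries, and those higher went from 541 to 995 without them. Against all libraries but basophils, genes lower in back skin went from 8 to 14 with a pseudocount of 0.1, 30 at a log2 difference of 2, 15 without the 4 libraries of another effective length and 103 without the brain libraries, and those higher from 569 to 1092. Genes lower in back skin than in basophils went from 828 to 1454 at a log2 difference of 2. As shares of expected counts, Prss34 took 44.5% of the basophil proteases and Mcpt4 28.6% of the skin proteases. Of the 50 nearest genes, 20 were also nearest by Pearson correlation. Leaving out aCD40+IL4 was chosen after seeing the data. Without it, 8 proteases met the rule in basophils as before. Fewer libraries or a smaller size loosen the rule by construction; the cause of the other moves was not tested. Depth limits the trace levels, where 1 to 3 reads of a protease make up a value.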

Other observations

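Inhibitors of serine and cysteine proteases were measured beside the proteases. Of 18 such genes, Slpi, the secretory leukocyte inhibitor of elastase and cathepsin G, met the rule of size in basophils, with 638 TPM against 77.3 in aCD40+IL4 and 6.68 in back skin. Serpinb1a, an intracellular inhibitor of granule serine proteases, was at 617 TPM in basophils and 320 in splenic B cells. Serpina3g was at 644 TPM in basophils and 371 in Tfr MUT. Cst7, cystatin F, an inhibitor of the activating protease Ctsc, was at 318 TPM in basophils and 460 in Tfr MUT. In back skin Serping1, the C1 inhibitor (185 TPM), and Spint1, a Kunitz inhibitor of epithelial proteases (188 TPM), met the rule. Both were under 1 TPM in basophils.

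Among the genes nearest to the proteases were 2 that are known from other tissues. Wap, the whey acidic protein of milk, was at 314 TPM in basophils, 0 in back skin and at most 0.21 in the other 20 libraries. Scgb1a1, the secretoglobin of airway club cells, was at 60.4 TPM in basophils, 13.1 in back skin and 0 in the other 20 libraries.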
